A study of Homo sapiens with 8 samples.

Results

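The cyclin-dependent kinase (CDK) inhibitor genes were followed in HepG2, a human hepatocarcinoma cell line, after inhibition of the histone methyltransferases EZH1 and EZH2. The members were the 7 genes CDKN2A, CDKN2B, CDKN2C and CDKN2D, which form the INK4 group, and CDKN1A, CDKN1B and CDKN1C, which form the CIP/KIP group, each taken by its symbol from the deposited expression table. Of the 7, 6 had a row among the 25603 genes of the table, 4 of the INK4 group and 2 of the CIP/KIP group, and CDKN1C was not analysed here. In the vehicle group, 4 cultures of HepG2 cells received DMSO for 4 days, at 0.2% by the labels and at a lower share by the study's methods. In the other group, called EZHi, 4 cultures received UNC1999 at 1 µM together with Valmetostat Tosylate at 1 µM for the same 4 days, so effects of the individual compounds cannot be told apart. All cultures were grown in William E medium with serum, insulin and dexamethasone. HepG2 is 1 tumour-derived line, and the 4 replicates of each group were independent cultures of it and not separate donors.

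INK4 proteins bind CDK4 and CDK6 and keep them from pairing with D-type cyclins, whereas CIP/KIP proteins bind cyclin-CDK complexes more broadly, with cyclin E-CDK2 and cyclin A-CDK2 as their best known targets. Both groups thereby slow phosphorylation of the retinoblastoma protein RB1 and the release of E2F transcription factors that drive entry into DNA replication. EZH2 and EZH1 are the catalytic subunits of Polycomb repressive complex 2, which methylates lysine 27 of histone H3, and the CDKN2A and CDKN2B locus is among the best known loci that this mark silences. CDKN2A encodes p16INK4a and, from an upstream first exon and another reading frame, p14ARF, which binds MDM2. CDKN1A encodes p21, a broad CDK inhibitor induced by many forms of stress, and CDKN1B encodes p27, whose protein level is set largely by SKP2-dependent degradation.

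The promoters of the genes in the following comparisons are shown because CDKN2A has separate starts and CDKN2B lies next to it. They come from RefSeq on GRCh38.p14 and are written 5′ to 3′ on the strand of the gene, with each CG dinucleotide in capitals. Each stops before the first base that lies in an annotated exon of a protein-coding gene, so intron bases can be included. CDKN2A lay on the minus strand of chromosome 9 at 21967752 to 21995301, and CDKN2B on the same strand at 22002903 to 22009305, leaving 7601 bases between them. The p16INK4a sequence, from chr9:21974867-21975107, lay in the intron downstream of the first exon of the p14ARF transcript. The p14ARF sequence was chr9:21995325-21995574, with its start 20467 bases upstream of the p16INK4a start. The CDKN2B sequence was chr9:22009306-22009555, and the CDKN1B sequence, on the plus strand of chromosome 12, was chr12:12717118-12717367.
CDKN2A, p16INK4a start: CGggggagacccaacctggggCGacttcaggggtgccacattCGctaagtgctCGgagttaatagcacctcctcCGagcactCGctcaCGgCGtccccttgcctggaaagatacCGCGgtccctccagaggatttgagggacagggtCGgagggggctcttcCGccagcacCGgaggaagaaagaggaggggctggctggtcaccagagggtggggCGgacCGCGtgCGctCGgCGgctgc
CDKN2A, p14ARF start: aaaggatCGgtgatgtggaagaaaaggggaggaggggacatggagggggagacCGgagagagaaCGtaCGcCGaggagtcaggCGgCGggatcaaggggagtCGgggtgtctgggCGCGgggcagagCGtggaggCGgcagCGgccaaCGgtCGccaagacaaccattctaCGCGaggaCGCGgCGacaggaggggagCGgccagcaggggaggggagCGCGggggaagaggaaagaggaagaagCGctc
CDKN2B: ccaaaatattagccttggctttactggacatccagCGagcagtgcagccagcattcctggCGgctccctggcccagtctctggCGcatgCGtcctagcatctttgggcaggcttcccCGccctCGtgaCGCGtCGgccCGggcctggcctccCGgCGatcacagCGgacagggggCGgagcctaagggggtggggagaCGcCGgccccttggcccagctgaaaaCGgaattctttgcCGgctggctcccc
CDKN1B: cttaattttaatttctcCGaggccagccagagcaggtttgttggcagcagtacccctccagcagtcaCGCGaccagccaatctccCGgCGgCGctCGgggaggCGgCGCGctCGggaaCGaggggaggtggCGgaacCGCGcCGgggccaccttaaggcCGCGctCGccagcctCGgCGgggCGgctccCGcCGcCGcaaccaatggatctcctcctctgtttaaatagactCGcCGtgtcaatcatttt
All were rich in CG dinucleotides. Counted over windows of 300 bases (250 before and 50 after the start), they held 26 for p16INK4a, 28 for p14ARF, 25 for CDKN2B and 29 for CDKN1B, against a median of 14 over 35116 RefSeq promoters. The p16INK4a window held more than 69.9% of those promoters and the CDKN2B window more than 68.0%. A CG, which reads the same on both strands, occurred in 96.0% of the promoters. CDKN2A and CDKN2B were thus close in this feature.

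Levels are the deposited length-corrected log2 values, a regularised log2 count less the log2 of the mean transcript length. They are also given as estimated FPKM, in which 2 to the power of the value was divided by 25.6, the mean library size in megareads that the table implies. True sequencing depth was unknown, because the table holds no counts, and the implied sizes of 24.4 to 27.3 megareads follow from the normalisation. Correlations of the 8 libraries over all genes were 0.996 to 0.999 within groups and 0.992 to 0.996 between groups, with no library standing apart. A gene was called when its adjusted p in limma was under 0.05, over the 20153 genes whose estimated FPKM averaged 0.1 or more, and all 6 members were among them. The replicate numbers were taken to pair vehicle and EZHi cultures, which the labels do not state. A fit with the replicate as a block is therefore given beside the results whose call or count it moved.

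CDKN2A rose and CDKN1B fell, and the other 4 members did not pass the test. Hence 1 of 6 members was called higher, beside 8.85% of all genes tested, and 1 of 6 was called lower, beside 4.27%. CDKN2A was also the only member at least 2-fold higher, a class that held 3.21% of the genes tested. With the replicate as a block, 2 members were called higher (CDKN2A and CDKN2B) and 2 lower (CDKN1B and CDKN2C), beside 14.9% and 15.1% of all genes. The members thus moved in different directions, and neither the INK4 nor the CIP/KIP group moved as a whole.

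**Figure D1:**
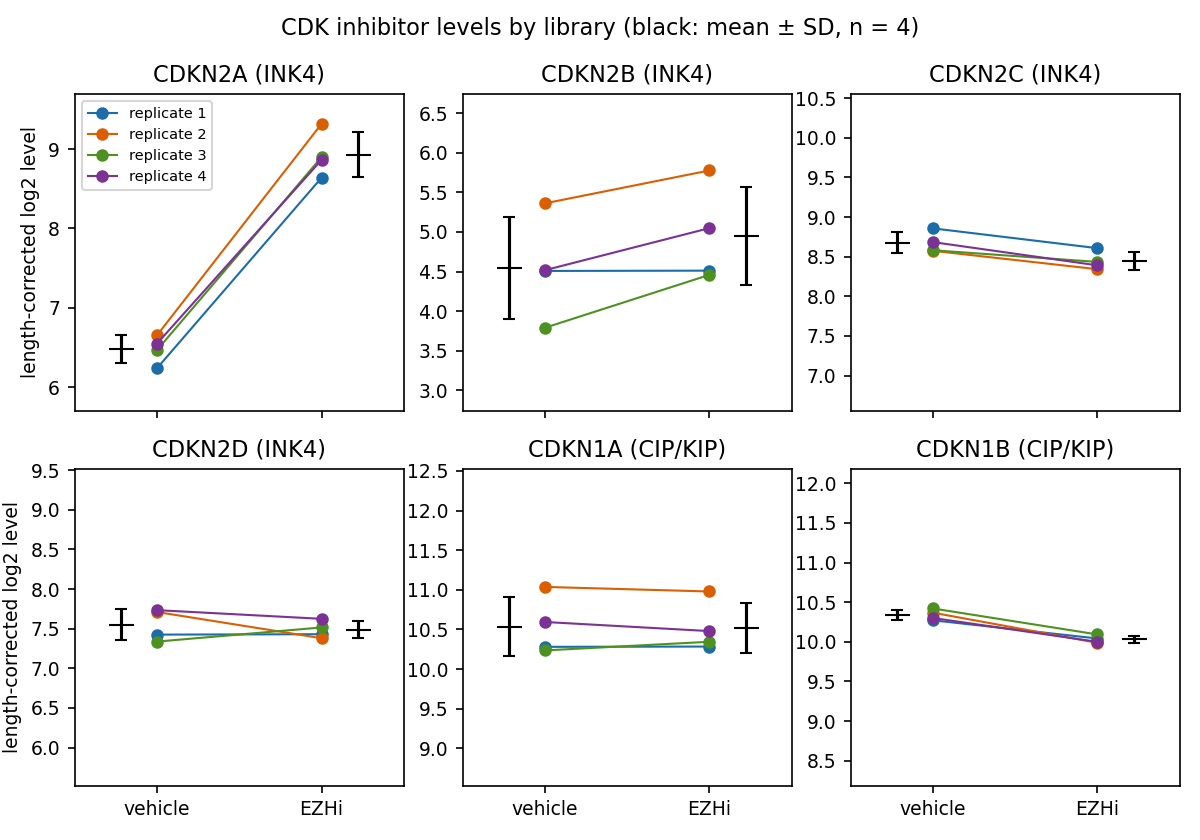
Length-corrected log2 level of each CDK inhibitor transcript in the 4 vehicle and the 4 EZHi libraries, with points coloured by replicate number and the mean ± SD in black (n = 4). CDKN2A lies between 6.24 and 6.65 in vehicle and between 8.64 and 9.32 in EZHi libraries, and replicate 2 is the highest CDKN1A value in both groups.

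CDKN2A (ENSG00000147889) was clearly higher in every EZHi culture. In vehicle cultures it lay below every other member except CDKN2B, though above 60.1% of the genes in the table. Its log2 level was 6.24, 6.65, 6.46 and 6.55 in vehicle replicates 1 to 4. In the EZHi replicates it was 8.64, 9.32, 8.90 and 8.86, and the groups did not overlap (10.7% of all genes tested were higher without overlap). Estimated FPKM rose from 3.49 ± 0.415 (SD, n = 4) to 19.3 ± 3.98 (SD, n = 4). The log2 fold change was 2.46 ± 0.15 (SE), a 5.49-fold rise with a 95% interval of 4.37 to 6.88 (limma adjusted p = 8.06e-06). Over all 70 ways to assign the libraries, with the pairing left aside, an exact permutation test (two-sided) gave p = 0.0286. That is the smallest that 4 against 4 allows without pairs, and swaps within pairs were not tested. The differences within the 4 pairs were 2.40, 2.67, 2.43 and 2.32, and the change ranked 49 of 20153 from the highest. Leaving out 1 library at a time gave 2.33 to 2.55, called each time. In these bulk libraries, fewer or more cells with the transcript and less or more RNA per cell cannot be told apart.

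The CDKN2A row pools 14 annotated transcripts, so p16INK4a and p14ARF cannot be told apart in these values. Its mean transcript length of 758 bases sets the height of the level but not the change. Of its 3885 exon bases, 593 (15.3%) are shared with CDKN2B-AS1, the antisense long non-coding RNA also called ANRIL, and reads were counted without strand. CDKN2B-AS1 had a mean log2 level of 3.86 ± 0.47 in vehicle and 4.06 ± 0.43 in EZHi cultures (SD, n = 4), a log2 fold change of 0.21 (limma adjusted p = 0.688).

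CDKN2B, which encodes p15INK4b, a mediator of growth arrest by TGF-β, was the lowest of the members. Its log2 level was 4.51, 5.36, 3.79 and 4.52 in vehicle and 4.51, 5.78, 4.46 and 5.05 in EZHi replicates 1 to 4. The groups overlapped, and replicate 2 was the highest in both. The log2 fold change was 0.40 ± 0.36 (SE), with a 95% interval of -0.40 to 1.21, and did not pass the test (limma adjusted p = 0.535). It was 0.13 without EZHi replicate 2, 0.15 when vehicle replicate 3 was left out and 0.68 for vehicle replicate 2, and was not called without any 1 library. With the replicate as a block the same value had an interval of 0.12 to 0.69 and was called (limma adjusted p = 0.0413). The pair differences behind it were 0.00 (replicate 1), 0.41, 0.67 and 0.53, and when pairs were left out in turn the blocked call held in 1 of 4 fits, with adjusted p from 0.0216 to 0.153. The blocked fit after quantile normalisation gave 0.20 and no call (limma adjusted p = 0.23). The gap between CDKN2A and CDKN2B widened from 1.93 ± 0.58 to 3.98 ± 0.39 on the log2 scale (SD, n = 4).

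Of the flanking genes, 2 were tested and neither was called or had an unadjusted p under 0.05 in limma. MTAP, an enzyme of methionine salvage that lies 30100 bases beyond the 3′ end of CDKN2A, had a log2 fold change of -0.01 (95% interval -0.15 to 0.12, limma adjusted p = 0.933). CDKN2A-DT and DMRTA1 were under the limit on low values and were not tested. ELAVL2 and IFNE were not analysed here.

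**Figure D2:**
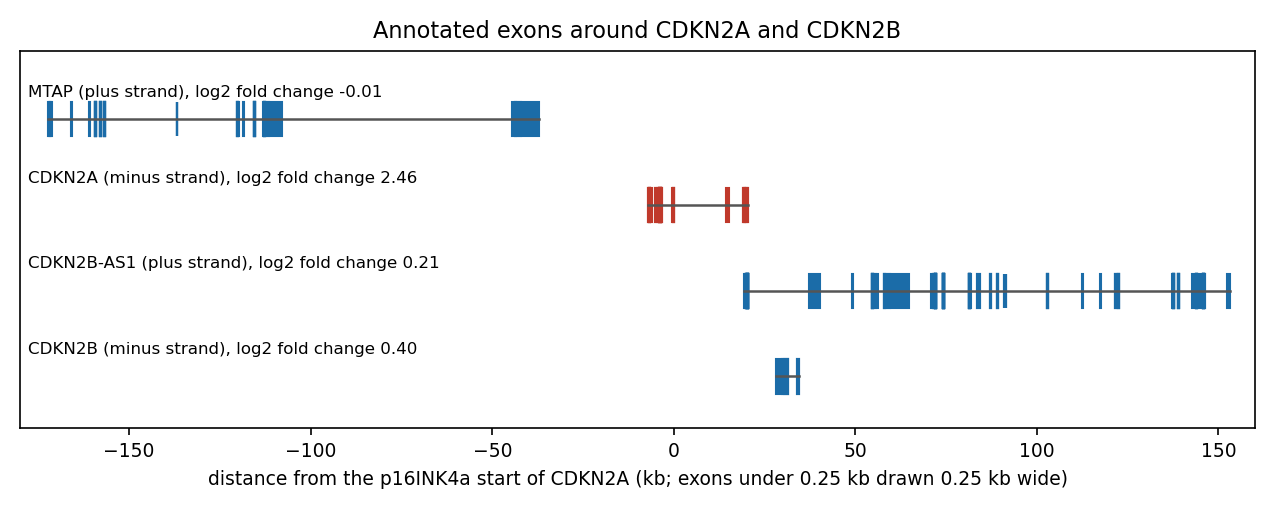
Annotated exons of CDKN2A, CDKN2B, CDKN2B-AS1 and MTAP by distance in kb from the p16INK4a start, with the log2 fold change of each gene beside its name. CDKN2A, at 2.46, sits between MTAP at -0.01 and CDKN2B at 0.40, and its upstream first exon overlaps CDKN2B-AS1, at 0.21.

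CDKN2C, which encodes p18INK4c, was slightly lower in every EZHi culture than in the vehicle culture of the same number. Its log2 level was 8.86, 8.57, 8.58 and 8.68 in vehicle and 8.61, 8.34, 8.43 and 8.39 in EZHi replicates 1 to 4, and the groups overlapped. The log2 fold change of -0.23 ± 0.09 (SE; 95% interval -0.43 to -0.03) did not pass the test (limma adjusted p = 0.129). It was called with the replicate as a block (limma adjusted p = 0.0109), in 3 of the 4 blocked fits that left out 1 pair, and not where the blocked values were centred on genes of at least 10 estimated FPKM. Of its 3018 exon bases, 617 (20.4%) are shared with an unnamed gene on the other strand.

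CDKN2D, which encodes p19INK4d, had log2 levels of 7.42, 7.71, 7.34 and 7.73 in vehicle and 7.43, 7.38, 7.51 and 7.62 in EZHi cultures. The groups overlapped, and 2 pairs were higher and 2 lower. Its log2 fold change was -0.06, with a 95% interval of -0.31 to 0.18 (limma adjusted p = 0.778), and took the opposite sign, at 0.03, under that centring.

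**Figure D3:**
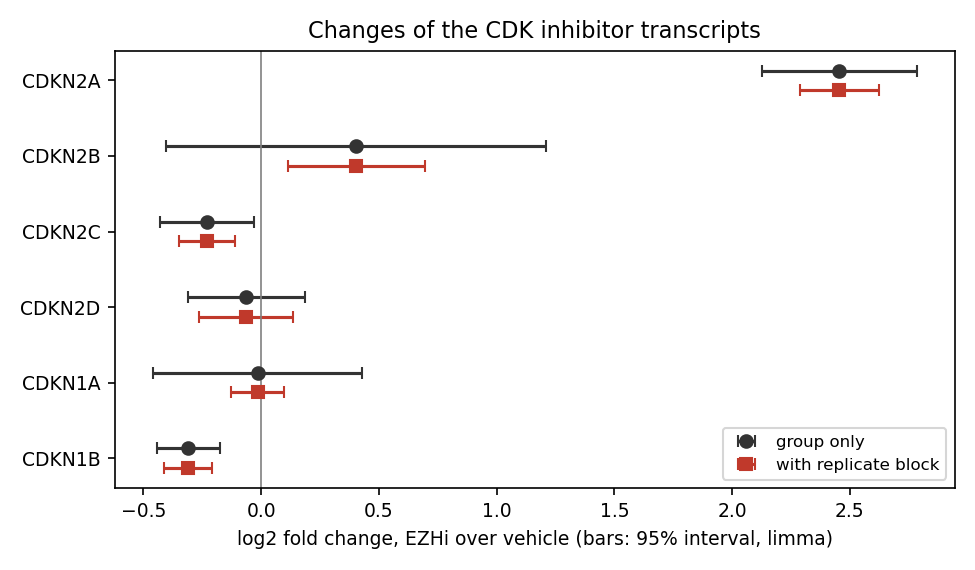
Log2 fold change of each member, EZHi over vehicle, with the 95% interval from limma without and with the replicate as a block. The intervals of CDKN2A, CDKN1B and CDKN2C exclude 0 in both fits, although CDKN2C was not called without the block, and that of CDKN2B excludes 0 with the block.

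CDKN1B, which encodes p27, fell in EZHi cultures. Its log2 level was 10.27, 10.37, 10.42 and 10.30 in vehicle and 10.04, 9.99, 10.09 and 10.00 in EZHi replicates 1 to 4, with no overlap (7.93% of all genes tested were lower without overlap). Estimated FPKM was 50.7 ± 2.36 in vehicle and 40.9 ± 1.36 in EZHi cultures (SD, n = 4), a change of -19.3%. The log2 fold change was -0.31 ± 0.06 (SE), with a 95% interval of -0.44 to -0.18 (limma adjusted p = 0.00741). With the pairing left aside, the exact two-sided permutation p was 0.0286 (n = 4 and 4), again the smallest possible without pairs. All 4 pairs were lower, and the call held without each library in turn, at -0.33 to -0.28. After quantile normalisation the value was -0.22 and no longer passed (limma adjusted p = 0.0534), though it was called there with the block (limma adjusted p = 0.00819).

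CDKN1A, which encodes p21, had the highest mean level of the 6 members and showed no called change. Its log2 level was 10.28, 11.04, 10.24 and 10.59 in vehicle and 10.28, 10.98, 10.34 and 10.48 in EZHi replicates 1 to 4. The groups overlapped almost entirely, and the same replicate, number 2, was the highest in each. The log2 fold change was -0.01, with a 95% interval of -0.46 to 0.43 (limma adjusted p = 0.977), narrowed to -0.13 to 0.10 by the block. The sign turned to 0.09 after quantile normalisation and 0.08 after centring, also without a call.

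Among 14 neighbours listed for CDKN1C, which encodes p57 in an imprinted region of chromosome 11, 11 were tested. Of these, 2 were called higher, beside 8.85% of all genes tested. CD81, a tetraspanin, rose by 0.87 (limma adjusted p = 0.0119) and OSBPL5, a lipid transfer protein, by 0.60 (limma adjusted p = 0.0177) on the log2 scale. Both were low. Mean estimated FPKM in vehicle and EZHi cultures was 0.261 and 0.486 for CD81, and 0.127 and 0.196 for OSBPL5. None of the neighbours was called lower or had an unadjusted p under 0.05 in that direction. Without EZHi replicate 4 or without vehicle replicate 4, or after quantile normalisation, 1 of the neighbours was called, and OSBPL5 was the one lost. The imprinted antisense RNA KCNQ1OT1 had a log2 fold change of 0.48 (limma adjusted p = 0.142, or 0.0103 with the block). With the block, beside 14.9% and 15.1% of all genes tested, 5 neighbours were called higher and 1 lower. Among them were IGF2, an imprinted growth factor and the largest change of the list, at 1.33 and higher in all 4 pairs (limma adjusted p = 0.0741, or 7.25e-05 with the block), and NAP1L4, a histone chaperone, at -0.38 (limma adjusted p = 0.575, or 0.0369 with the block).

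Per length, the order of levels in vehicle cultures was CDKN1A at 59.5 ± 16.1, CDKN1B at 50.7 ± 2.36, CDKN2C at 16.004 ± 1.505, CDKN2D at 7.38 ± 1.01, CDKN2A at 3.49 ± 0.415 and CDKN2B at 0.982 ± 0.447 estimated FPKM (SD, n = 4). CDKN1A and CDKN1B overlapped within their spread. In EZHi cultures the order was the same except that CDKN2A, at 19.3 ± 3.98, stood above CDKN2C, at 13.6 ± 1.12, and CDKN2D, at 7.02 ± 0.527. The 4 CDKN2A values there (15.58 to 24.96) lay above the 4 CDKN2C values (12.7 to 15.2).

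The INK4 genes together held 27.9 ± 1.74 estimated FPKM in vehicle cultures, from 25.3 to 28.9, and 41.3 ± 3.42 in EZHi cultures, from 38.4 to 46.3 (SD, n = 4). CDKN2A made up 12.6% ± 1.61 of this sum in vehicle and 46.5% ± 5.56 in EZHi cultures. The CIP/KIP pair held 110 ± 16.5 and 99.4 ± 12.95. On the log2 scale, the mean of the INK4 genes less that of the CIP/KIP genes was -3.63 ± 0.11 in vehicle and -2.82 ± 0.07 in EZHi cultures, a difference of 0.80. Without CDKN2A, the INK4 mean was 6.92 ± 0.27 in vehicle and 6.96 ± 0.17 in EZHi cultures. The difference between the groups of inhibitors therefore lay largely in CDKN2A. No test was made on these sums, since members are not replicates.

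**Figure D4:**
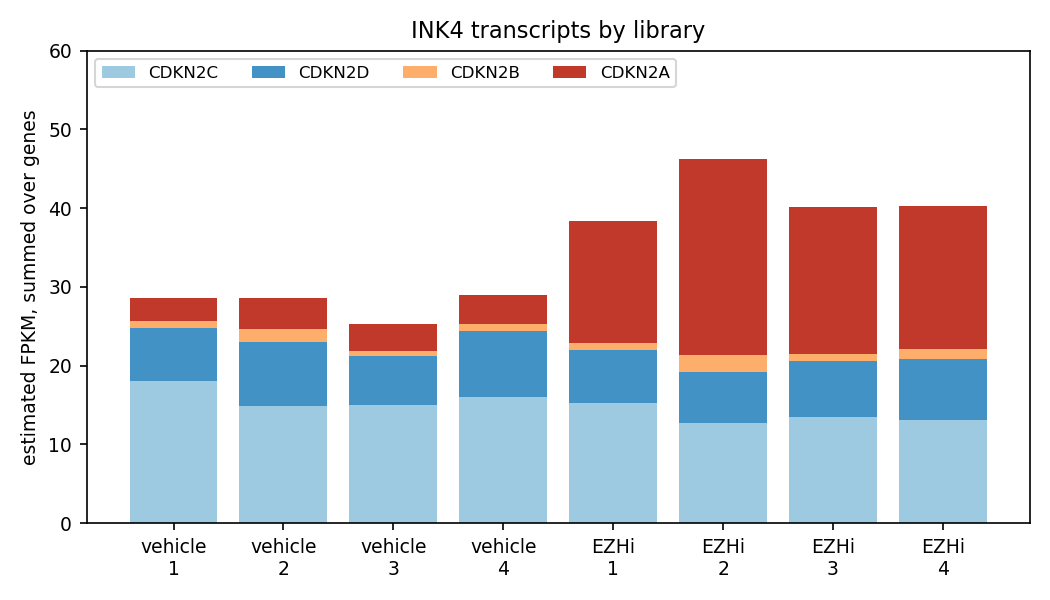
Estimated FPKM of the INK4 genes, stacked by gene, in each of the 8 libraries. The stacks reach 25.3 to 28.9 in vehicle and 38.4 to 46.3 in EZHi libraries, and CDKN2A goes from a mean of 3.49 to a mean of 19.3.

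The targets of the inhibitors, the CDKs, showed no called change. Of 5 CDKs of the cell cycle none was called (median log2 fold change -0.09, against -0.01 over all genes tested); 1 of the 5 had an unadjusted p under 0.05. CDK4, the main INK4 target, was at 0.01 (limma adjusted p = 0.973), CDK6 at 0.15 (0.378, or 0.0517 with the block) and CDK2 at -0.23 (limma adjusted p = 0.161, or 0.0208 with the block). CDK7, which activates other CDKs, was at -1.09 with a spread of 1.72 (SD, n = 4) among the vehicle log2 levels (limma adjusted p = 0.36). Without vehicle replicate 3 alone, CDK2 was called lower at -0.31.

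Of 9 cyclins tested, 1 rose and 2 fell, beside 8.85% and 4.27% of all genes tested. CCND2, a D-type cyclin, moved as far as CDKN2A on the log2 scale. It was low, at a mean of 0.344 estimated FPKM in vehicle and 1.87 in EZHi cultures. Its log2 level was 2.88, 3.91, 2.63 and 2.73 in vehicle and 5.14, 6.14, 5.05 and 5.70 in EZHi replicates 1 to 4, with no overlap, a log2 fold change of 2.47 (limma adjusted p = 0.00075). CCND1, the most abundant D-type cyclin here, was at 0.14 (limma adjusted p = 0.326, or 0.0434 with the block). CCNA2, the S-phase cyclin, fell by 0.36 (limma adjusted p = 0.027) and CCNH, the partner of CDK7, by 0.34 (limma adjusted p = 0.0151) on the log2 scale. Neither passed after quantile normalisation or centring or without EZHi replicate 4, and CCNA2 also failed without vehicle replicate 1, 2 or 4 or EZHi replicate 2 or 3. With the block, 3 cyclins were called higher and 3 lower, beside 14.9% and 15.1% of all genes tested.

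None of the 13 pocket proteins and E2F or DP factors was called (median -0.10; 2 had an unadjusted p under 0.05 in each direction). RB1 was at -0.23 (limma adjusted p = 0.163, or 0.0195 with the block), and E2F1 at -0.08 (limma adjusted p = 0.747). With the block 2 of the 13 were called higher and 4 lower, beside 14.9% and 15.1% of all genes tested.

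E2F target and proliferation genes leaned downward by small amounts. Of 30 tested, 28 had a negative log2 fold change, beside 10481 of all 20153 genes tested. The median was -0.20, against -0.01 over all genes tested. Beside 4.27% of all genes tested, 3 of the 30 were called lower. These were CDT1, a replication licensing factor, at -0.32 (limma adjusted p = 0.0357), AURKA, a mitotic kinase, at -0.32 (limma adjusted p = 0.00451), and BUB1, a spindle checkpoint kinase, at -0.29 (limma adjusted p = 0.0422). The count depended on the fit. With the block, beside 15.1% of all genes tested, 22 of the 30 were called lower, among them MKI67, PCNA, MCM2 and FOXM1. With the block after centring 8 were called lower, and with the block after quantile normalisation 6. When 1 pair was left out of the blocked fit, the count was 14 (without replicate 1), 13 (replicate 2), 20 (replicate 3) or 9 (replicate 4). After quantile normalisation or centring without the block, 1 was called and the median was -0.10. The median over all genes tested was then -0.06 after quantile normalisation and 0.09 after centring. Centring sets the median level of genes of at least 10 estimated FPKM equal in all libraries. All 30 listed genes averaged 15.9 or more, so beside genes of that class the lean was nearer -0.10 than -0.20. Without the trend in limma 1 was called. Without vehicle replicate 3 there were 8, and without vehicle replicate 1, 2 or 4 or EZHi replicate 2, 3 or 4 there was 1.

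**Figure D5:**
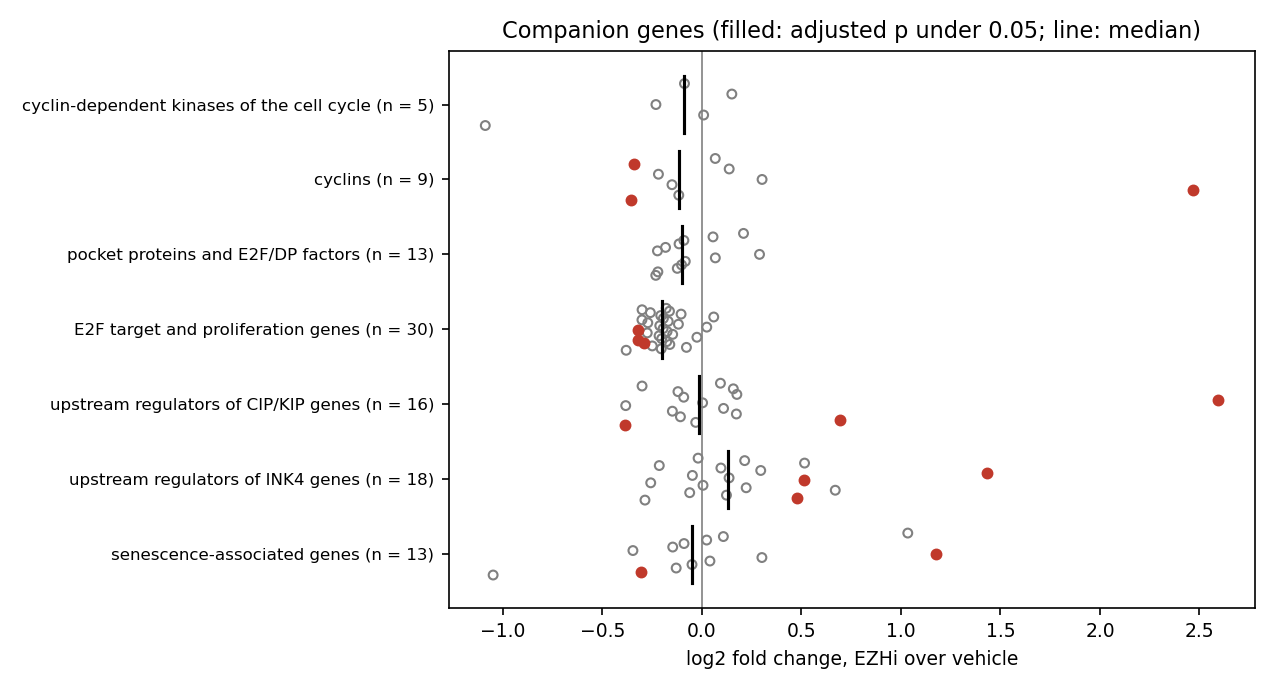
Log2 fold change, EZHi over vehicle, of each gene in the lists around the CDK inhibitors, with filled points for genes called by limma and a line at the median of each list. The E2F target and proliferation genes lie within 0.38 below and 0.06 above 0, whereas CCND2 and MYCN stand near 2.5.

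Among 18 tested upstream regulators of the INK4 genes, 3 rose and none fell, beside 8.85% and 4.27% of all genes tested. The median was 0.13, 2 had an unadjusted p under 0.05 in the lower direction, and 1 was called lower without EZHi replicate 2. All 3 that rose encode subunits of Polycomb repressive complex 1, the complex known to repress CDKN2A. CBX2 rose from 8.54, 8.72, 8.52 and 8.84 to 9.96, 10.07, 10.20 and 10.12 on the log2 scale, a change of 1.43 (limma adjusted p = 8.64e-06). BMI1 rose by 0.51 (limma adjusted p = 0.00418) and CBX8 by 0.48 (limma adjusted p = 0.00528). With the block 8 were called higher (4 without pair 1 or without pair 4) and 3 lower, beside 14.9% and 15.1% of all genes tested. Without the block 5 were called higher when vehicle replicate 3 was left out.

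Among 16 upstream regulators of the CIP/KIP genes, 2 rose and 1 fell (median -0.01), beside 8.85% and 4.27% of all genes tested. MYCN, a MYC family transcription factor, rose from 3.82, 3.72, 2.83 and 3.04 to 6.17, 6.13, 5.68 and 5.81, a log2 fold change of 2.59 (limma adjusted p = 7.72e-05). Its level was low, at a mean of 0.417 estimated FPKM in vehicle and 2.44 in EZHi cultures. KLF4, which was low at a mean of 0.293 estimated FPKM in vehicle and 0.478 in EZHi cultures, rose by 0.69 (limma adjusted p = 0.00633). KLF6 fell by 0.38 (limma adjusted p = 0.0464), a call that was lost after quantile normalisation or centring, without the trend or without a limit on low values, and in 6 of the 8 fits without 1 library, holding without vehicle replicate 1 or EZHi replicate 3. SKP2, which marks p27 for degradation, was at 0.00 (95% interval -0.14 to 0.15, limma adjusted p = 0.984). MDM2, a ubiquitin ligase, was at -0.09 (95% interval -0.33 to 0.15, limma adjusted p = 0.657), or 0.03 after quantile normalisation and 0.00 after centring. With the block, beside 14.9% and 15.1% of all genes tested, 3 of the 16 were called higher and 3 lower. The block added MYC at 0.18 (limma adjusted p = 0.0234) to the higher ones. To the lower ones it added FOXO1 at -0.30 (limma adjusted p = 0.00745) and CKS2, a CDK-binding protein, at -0.38 (limma adjusted p = 0.00072).

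Of 13 senescence-associated genes tested, 1 rose and 1 fell, beside 8.85% and 4.27% of all genes tested, with a median of -0.05. IGFBP7, a secreted growth factor binding protein, rose by 1.17 (limma adjusted p = 0.0145), or 1.12 and not called without EZHi replicate 4 (limma adjusted p = 0.0508). HMGA2, a chromatin architectural protein, fell by 0.30 (limma adjusted p = 0.0356), not called after quantile normalisation or centring or without the trend. It was also not called without vehicle replicate 1, 2 or 4 or EZHi replicate 2, 3 or 4, while 2 genes of the list were called lower, and 2 higher, without vehicle replicate 3. LMNB1, whose loss is a common mark of senescent cells, was at -0.13 (limma adjusted p = 0.374). With the block 3 were called in each direction, beside 14.9% of all genes tested called higher and 15.1% lower. None of the 3 other genes with a CDKN symbol, CDKN3, CDKN2AIP and CDKN2AIPNL, was called, at -0.19, 0.02 and -0.12, and none had an unadjusted p under 0.05. CDKN3 was called with the block.

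The label of the cells held against their markers. Hepatocyte markers summed to 28672 to 53056 estimated FPKM in vehicle and 31061 to 47788 in EZHi cultures, with AFP and ALB highest. Of these, 1 of 10 was called, FGB, which rose by 0.92 (limma adjusted p = 0.00167), beside 8.85% of all genes tested called higher. With the block, beside 14.9% and 15.1% of all genes tested, 3 were called higher and 1 lower. The block added APOA1 at 0.42 (limma adjusted p = 0.00812) and APOB at 0.36 (limma adjusted p = 0.00155). ALB was the one called lower, at -0.28 (limma adjusted p = 0.0314). Of 11 markers of other cell types, 7 had a row and summed to 15.1 to 17.7 estimated FPKM in vehicle and 19.4 to 22.5 in EZHi cultures. PDGFRB was the highest of the 7, at a mean of 11.2 in vehicle and 12.7 in EZHi cultures, followed by COL1A1 at 2.52 and 3.07. Neither was called, at log2 fold changes of 0.17 (limma adjusted p = 0.451) and 0.37 (limma adjusted p = 0.622). Among the 5 tested, the endothelial genes CDH5 (2.28, limma adjusted p = 0.00411) and VWF (1.45, limma adjusted p = 0.00537) rose, beside 8.85% of all genes tested. Both were low, at means of 0.317 and 0.642 estimated FPKM in vehicle and 1.68 and 1.86 in EZHi cultures. PECAM1 was at 0.04, and COL3A1 and CD3E were under the limit on low values. Any part of other cell types in the CDKN2A values was not tested.

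The genes whose pattern over the 8 libraries was closest to CDKN2A, by the root mean square difference of centred log2 levels, were TAL1 (0.154), MMP2 (0.174) and SH3RF3 (0.174). Their vehicle means were low, at 0.323, 0.458 and 0.068 estimated FPKM, against 3.49 for CDKN2A. SH3RF3 passed the limit of 0.1 only through its EZHi values, which averaged 0.385. Closest to CDKN1B were ESYT2 (0.025), NPEPPS (0.029) and NCOR1 (0.034). Being chosen for their likeness, these genes are given as a description.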

How the data were processed

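RNA-seq of 4 vehicle and 4 EZHi HepG2 cultures (150 bp paired-end) was analysed from 1 deposited table. Per the study's methods, the authors aligned reads to hg38, counted them per gene with HTSeq in union mode without strand (minimum quality 10), dropped genes with fewer than 10 reads in all, applied the DESeq2 rlog transformation and corrected for mean transcript length. The submitters' processing notes list HISAT2 2.2.1, HTSeq 0.9.1 and DESeq2 1.40.2. The deposited columns are named FPKM, but hold log2 values from -6.81 to 19.01, so no count test was used. The DMSO share printed is that of the labels, and the study's methods give a lower one.

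Of 25604 rows, 1 repeated identifier was dropped; 25594 genes matched GENCODE 44. Levels were fitted with limma 3.58.1 in R 4.3.3 (lmFit and eBayes with a trend, group as the only term, two-sided), over genes averaging 0.1 estimated FPKM or more, with Benjamini-Hochberg adjustment. The fit was tested on simulated data with independent noise per gene and library. Those data held no replicate effect, so they cannot show how the pairing affects the calls. Exact permutation tests over libraries, which left the pairing aside, were added for the members. Alternatives were the replicate as a block, quantile normalisation, centring on genes of at least 10 estimated FPKM, other limits on low values, pseudocounts of 0.5 and 0.1 on the linear scale, no trend, and leaving out each library. The blocked fits after normalisation or without a pair were chosen after seeing the data. Replicate numbers were taken to pair cultures, since the deviations of same-numbered libraries from their group means correlated at 0.310, 0.558, 0.634 and 0.216, against at most 0.199 for other numbers.

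Members and lists were chosen with earlier results of these data known. Of each list, called genes were named, up to 4 by size of change, plus CDK4, CDK6, CDK2, CCND1, RB1, E2F1, MDM2, SKP2, BMI1, CDKN2B-AS1 and KCNQ1OT1; for the INK4 and the CIP/KIP member with the largest moderated t, the 3 genes of closest pattern were named. In addition, 1 gene of this rule and 1 list tied to it are not reported here. Genes named outside this rule (MTAP, CDK7, IGF2, NAP1L4, MYC, FOXO1, CKS2, APOA1, APOB, LMNB1, PDGFRB, COL1A1, PECAM1, COL3A1, CD3E, AFP, ALB, MKI67, PCNA, MCM2, FOXM1, CDKN3, CDKN2AIP and CDKN2AIPNL) were chosen after their values were seen.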

Additional observations from a re-analysis of the deposited data

Results flagged for a closer look

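In 1 of 82 groups of 4 libraries examined, 1 library lay apart from the other 3, where chance gives about 4.1. The log2 level of IGFBP7 was 5.15 in EZHi replicate 3 against 5.99, 6.05 and 6.07 in the other EZHi libraries. The gap was 0.917 of the range, over the critical value at 95%. Its vehicle levels were 5.12, 4.63, 4.08 and 4.72, of which replicate 3 was also the lowest.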

How the results depend on the processing

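The calls of CDKN2A kept their direction and passed in every alternative run, as did those of CDKN1B except after quantile normalisation (-0.22). With the replicate block, CDKN2B (0.40) and CDKN2C (-0.23) were called, 2 members were higher and 2 lower, 3003 genes were called higher and 3048 lower in place of 1784 and 860, and listed genes numbered 29 and 42 in place of 12 and 7; the block changed no other call of a member. At a limit of 1 estimated FPKM, 780 genes were called higher. Quantile normalisation reversed CDKN1A (0.087) and MDM2 (0.028), left 0 members lower and 1 listed gene lower. Centring reversed CDKN1A (0.080), CDKN2D (0.031), E2F1 (0.012) and MDM2 (0.0039), with 319 genes and 1 listed gene lower. Without a trend 3 listed genes were lower. The block with quantile normalisation gave CDKN1A 0.087, MDM2 0.028, CDKN2C -0.19 (called), 2 members lower, 2769 genes higher and 2824 lower, and 33 and 17 listed genes. The block with centring gave CDKN1A 0.080, CDKN2B 0.50 (called), CDKN2D 0.031, E2F1 0.012, MDM2 0.0039, 2 members higher, 4549 genes higher and 1368 lower, and 41 and 18 listed genes. The cause of these shifts was not tested. None of the reversed values was called.

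Leaving out 1 library gave CDKN1A -0.17 to 0.15, CDK4 -0.068 to 0.068 and SKP2 -0.023 to 0.037, with 1422 to 1711 genes higher and 389 (without EZHi replicate 4) to 860 lower, and 10 to 17 and 1 to 13 listed genes. Genes lower numbered 495 when vehicle replicate 1 was left out, 454 for vehicle replicate 4 and 554 for EZHi replicate 1. With the block and 1 pair left out, CDKN1A ranged from -0.056 to 0.018, CDKN2B from 0.32 to 0.54, CDKN2C from -0.26 to -0.21, CDKN2D from -0.14 to 0.025, CDK4 from -0.015 (-0.012 without pair 3) to 0.048 and SKP2 from -0.017 (-0.010 without pair 1) to 0.032; members called were 1 to 2 in each direction, genes 2336 to 2546 higher and 1788 to 2497 lower (2222 without pair 1, 1895 without pair 3), and listed genes 23 to 25 higher (24 without pair 3 or 4) and 22 to 33 lower (31 without pair 1, 27 without pair 2).

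The table holds no counts, so depth gives no interval for low levels, and the precision rests on 4 cultures of 1 cell line. Regularised log2 values pull low genes toward their mean, so a change of a low gene is a shrunken one.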
